A study of Mus musculus with 9 samples.

Results

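Accessible DNA, enhancer activity and RARA binding were described at the loci of 9 genes of retinoic acid (RA) metabolism and signalling: Cyp26a1, Cyp26c1, Cyp26b1, Dhrs3, Crabp2, Rara, Rarb, Rarg and Rxra. The members were all regions of 5 deposited peak lists whose midpoint lay in 1 of 8 mm9 windows around these genes, Cyp26a1 and Cyp26c1 sharing a window. The windows, 200 to 350 kb wide and 2.02 Mb in all, held 337 of 202373 regions. The cells were E14, an established mouse embryonic stem cell line grown without feeder cells. Enhancer activity had been measured by FAIRE-STARR-seq: open chromatin is isolated, its DNA is cloned into a reporter plasmid, and an active fragment drives its own transcription. Reporter RNA came from cells with leukemia inhibitory factor (LIF), which holds them in the pluripotent state (3 samples), and from cells without LIF given 1 µM RA for 4 h (3 samples). The plasmid library (1 sample) had been made from cells treated with 1 µM RA for 4 h. RARA ChIP-seq, also after 1 µM RA for 4 h, had 1 ChIP and 1 input library. The sole condition seen without RA was therefore the reporter RNA with LIF, for which a treatment time of 4 h is also given. All lists came from merged replicates or single libraries and carried neither read counts nor a value per replicate. The depth behind each peak was therefore unknown, no spread between cultures could be set against any value, and no test was made. The files held no expression values, so the cell label was not checked against marker genes.

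All-trans retinoic acid binds the nuclear receptors RARA, RARB and RARG, which sit on DNA as heterodimers with RXR partners such as RXRA. Their response elements are often direct repeats of a short motif, and several genes that limit RA are themselves targets of the receptors, which forms a feedback loop. CYP26A1, CYP26B1 and CYP26C1 are cytochrome P450 enzymes that oxidise RA, DHRS3 reduces retinaldehyde and so lowers RA synthesis, and CRABP2 carries RA to the receptors in the nucleus.

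Promoter sequences are shown for the members whose promoter held a direct repeat spaced by 5 bases, the arrangement known best for RA response elements. RefSeq promoters of assembly GRCm38.p6, from 250 bases before to 50 after a gene start, were at hand for 8 of the 9 genes (15 promoters); Crabp2 had no entry. A repeat spaced by 5 (NGNTCANNNNNNGNTCA, either strand) was found in the promoters of Cyp26a1 and Rarb, and in 0.861% of all 32851 promoters. Capitals mark the repeat, each strand runs with its gene, and coordinates are GRCm38.p6, not comparable with the mm9 positions below.
Cyp26a1, chr19:37697736-37697807, plus strand: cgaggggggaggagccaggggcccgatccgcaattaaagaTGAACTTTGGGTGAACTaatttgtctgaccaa
Rarb, chr14:16575498-16575569, minus strand: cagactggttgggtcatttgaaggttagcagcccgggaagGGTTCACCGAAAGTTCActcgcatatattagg

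The Cyp26a1 repeat lay 32 to 16 bases before the gene start, on the strand opposite to the gene. In Rarb it lay 53 to 37 bases before the start, on the gene's own strand. Read along the repeat, the 17 bases are as follows.
Cyp26a1: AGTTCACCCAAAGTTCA
Rarb: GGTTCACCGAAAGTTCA

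The 2 sites were identical at 15 of 17 bases and differed by A1G and C9G (the Cyp26a1 base first, counted from 1 at the site's 5′ end). The run they share, GTTCACCNAAAGTTCA, was searched after it had been seen and overlaps the repeat itself. It was found in 3 of the 32851 promoters, those of Cyp26a1, Rarb and Gm32342. Repeats spaced by 2 (NGNTCANNNGNTCA) or by 1 (NGNTCANNGNTCA), searched on both strands, were found in none of the 15 promoters, against 1.11% and 1.25% of all promoters. Of 23 other genes of the pathway 15 had an entry (25 promoters), among them Aldh1a1 and Aldh1a2, which make RA, and Crabp1, Rxrb, Rxrg and Stra6. None of these promoters held any of the 3 repeats. No genome or annotation of mm9 was at hand, so the lists' regions were not placed relative to gene starts, exons or introns, and their sequences were not read.

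The windows held 288 of 186959 plasmid input regions, 16 of 4674 mESC enhancers (LIF over plasmid input), 2 of 601 LIF-dependent enhancers (LIF over RA), 4 of 382 RA-induced enhancers (RA over LIF) and 27 of 9757 RARA peaks. Folds and −log10 q values come from the authors' peak calling, and ranks are by fold within a list. Regions were held to overlap when they shared at least 1 bp. Of the 27 RARA peaks 9 overlapped a listed enhancer (33.3%, 95% Wilson interval 18.6 to 52.2%), against 9.19% of all RARA peaks. By list, 7 overlapped an mESC enhancer (whole list 8.87%), 3 an RA-induced one (1.21%) and 2 a LIF-dependent one (1.02%), some of these being the same peaks. An RARA peak was overlapped by 7 of the 16 mESC enhancers (43.8%, 23.1 to 66.8%), against 18.5% of the whole list, by 3 of the 4 RA-induced enhancers, against 30.9%, and by both LIF-dependent enhancers, against 16.6%. Among input regions 17 of 288 overlapped an RARA peak (5.90%, 3.72 to 9.25%; whole list 2.94%) and 16 an mESC enhancer (5.56%, 3.45 to 8.83%; whole list 2.47%), and 19 an enhancer of any list (6.60%; whole list 2.57%), among them the 4 with an RA-induced one (whole list 0.201%). All 16 mESC and all 4 RA-induced enhancers lay on input regions, as did 98.9% and 98.4% of their lists. Of the RA-induced enhancers 1 was also an mESC enhancer, against 51.0% of the list, and both LIF-dependent ones were, against 99.8%; 2 of the 16 mESC enhancers were LIF-dependent, against 12.8%. Intervals cover counting error alone and treat neighbouring regions as independent, and since the loci were chosen for their role in RA biology, these shares describe the windows and were not tested. The RARA peaks of the windows had a median fold of 3.09, close to the 3.06 of the whole list, and the input regions a median of 5.00 against 5.48. Enhancers were unevenly spread: 15 of the 16 mESC enhancers lay in the Rarg and Crabp2 windows, all 4 RA-induced enhancers in those of Cyp26a1/Cyp26c1, Dhrs3 and Rara, and both LIF-dependent enhancers in that of Crabp2.

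**Figure D1:**
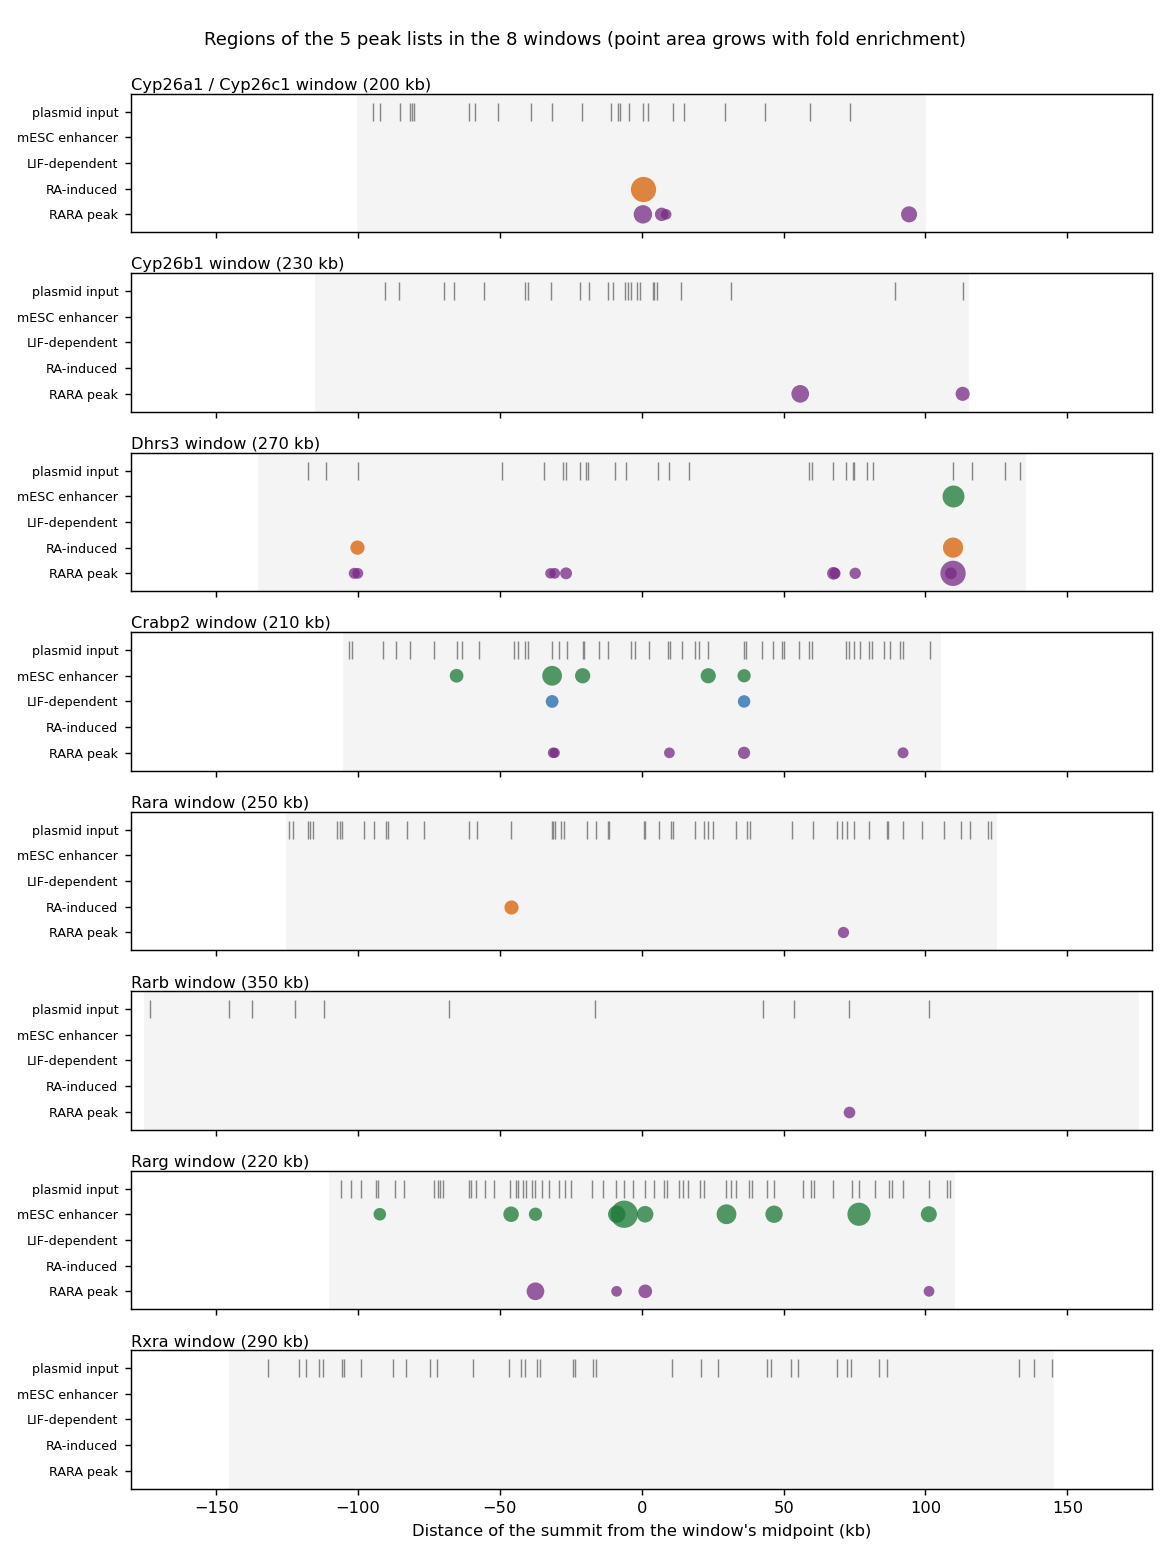
Regions of the 5 lists in each window, placed by the distance of their summit from the window's midpoint (kb); grey shading is the window, grey ticks are plasmid input regions, and the area of each point grows with its fold enrichment in its own list. The Rarg window held 10 mESC enhancers and 62 input regions. The Rarb, Rxra and Cyp26b1 windows held no listed enhancer, with 11, 37 and 24 input regions. In the whole list 2.57% of input regions overlapped a listed enhancer.

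The RA-degrading enzymes Cyp26a1 and Cyp26c1 are neighbouring genes, and their window (chromosome 19, 37670000 to 37870000) held the RA-induced enhancer of highest fold in the whole list. It ran from 37770294 to 37770533, with an RA over LIF fold of 20.3 (rank 1 of 382, −log10 q 47.3). An RARA peak of 10.2-fold (37770182 to 37770677, rank 217 of 9757) covered it entirely, and the summits lay 16 bp apart. Over the 118 RA-induced enhancers with an RARA peak the median distance was 36.5 bp and the lower quartile 16 bp. The enhancer was not in the mESC list, and no mESC or LIF-dependent enhancer was listed anywhere in the window. The plasmid input region beneath it (37770042 to 37770509) had a fold of 4.07, below the window's median of 5.37. Input folds are over local background and are not a count of library copies. Of the other 3 RARA peaks in the window, one lay 6.61 kb further along (37776901 to 37777109, 4.88-fold, rank 1421) and the next 1.61 kb beyond it (37778556 to 37778744, 2.44-fold, rank 8662). The last, 85.59 kb on (37863856 to 37864355), had a fold of 7.51 (rank 521). None of these 3 overlapped an input region (whole list 55.6% overlapping), so no library DNA was called at them. The absence of a listed enhancer there is therefore not a measurement of inactivity. All 24 input regions of the window except the one under the RA-induced enhancer held neither an enhancer nor an RARA peak. The one of highest fold in the window, from 37748760 to 37748970 at 10.7, was among those 23. In the whole list 177642 of 186959 input regions likewise held neither.

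Cyp26b1, a second RA hydroxylase of the family, had RARA peaks and no listed enhancer. In its window (chromosome 6, 84420000 to 84650000) the stronger peak ran from 84590620 to 84591024, with a −log10 q of 55.8 and a fold of 9.31 (rank 304), near the 10.2 of the peak at the Cyp26a1/Cyp26c1 enhancer. It overlapped no input region. The weaker one, from 84647517 to 84648200, had a fold of 5.49 (rank 1087) and 3 summits in the deposited list. It touched an input region of 3.00-fold (84648197 to 84648718), and only at its last bases, so that this overlap was lost when a 0.5 share of the shorter region was required. The nearest listed enhancer lay 377.0 kb from that RARA summit. The other 23 input regions had folds of up to 12.3 (84479097 to 84479407). They held neither an enhancer nor an RARA peak, as did 177642 of 186959 input regions in the whole list. The stronger peak thus lay outside the called library, and the weaker one lay in it only at its last bases. In the whole list 55.6% of RARA peaks overlapped an input region. The absence of an enhancer at these peaks is therefore not a measurement of inactivity.

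Dhrs3, the retinaldehyde reductase, had the most RARA peaks and the strongest one. Its window (chromosome 4, 144380000 to 144650000) held 10 RARA peaks and 27 input regions. This is 370 peaks per 1000 input regions, against 72.1 on chromosome 4 as a whole. It is a ratio of counts, since only 5 of the 10 peaks overlapped an input region (whole list 55.6%). The only ones with a −log10 q of at least 10 were those of 20.5-, 4.21-, 3.50- and 3.09-fold. The strongest, from 144624331 to 144625320, had a fold of 20.5 (rank 40 of 9757) and a −log10 q of 231. It covered an RA-induced enhancer (144624550 to 144624807) with a fold of 12.6 (rank 14 of 382), whose summit lay 4 bp from the RARA summit. That enhancer was also listed in cells with LIF (144624539 to 144624839), with a fold over input of 15.1 (rank 677 of 4674) and a deposited activity score of 3.99 (rank 119), a score whose scale is not stated. The 2 folds share the LIF samples, as the numerator of one and the denominator of the other. The input region below (144624528 to 144624810) had a fold of 13.6. This was the one place in all windows where an mESC enhancer, an RA-induced enhancer and an RARA peak coincided. In the whole mESC list 4.17% overlapped an RA-induced enhancer.

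The second RA-induced enhancer of the Dhrs3 window lay 209.93 kb away (144414663 to 144415004). Its fold of 5.61 (rank 179) was near the list's median of 5.47, and it was not in the mESC list. It overlapped a weak RARA peak (144414807 to 144415016) of 2.68-fold (rank 7129), with summits 107 bp apart. Both lay within the input region of highest fold in the window (144414025 to 144415102, 20.0-fold, rank 1671 of 186959). The 10 RARA peaks fell into 4 groups along the window. A further peak of 2.84-fold (144413649 to 144413821) lay 1.22 kb from the RARA summit at this enhancer. Then, 67.92 kb on, came 3 peaks spaced 1.48 and 4.03 kb apart, of 2.41-fold (144482680 to 144482875), 2.63-fold (144484093 to 144484373) and 3.50-fold (144488174 to 144488551). After 94.24 kb followed peaks of 4.21-fold (144582434 to 144582667), 2.94-fold (144582927 to 144583190) and 3.09-fold with 2 summits (144589762 to 144590446). The final group was the 20.5-fold peak and one of 3.43-fold (144623835 to 144624102) 0.77 kb before it. Apart from the strongest peak, the 9 peaks had folds between 2.41 and 4.21, so the locus combined 1 very strong site with many of about median strength. Of these 9, the 3 at 3.50-, 4.21- and 3.09-fold overlapped input regions of 6.29-, 10.8- and 4.55-fold that held no listed enhancer. A further 5 lay outside the called library. RARA peaks had a median of 2 others within 100 kb over the whole list, and the Dhrs3 peaks had 4 to 7.

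**Figure D2:**
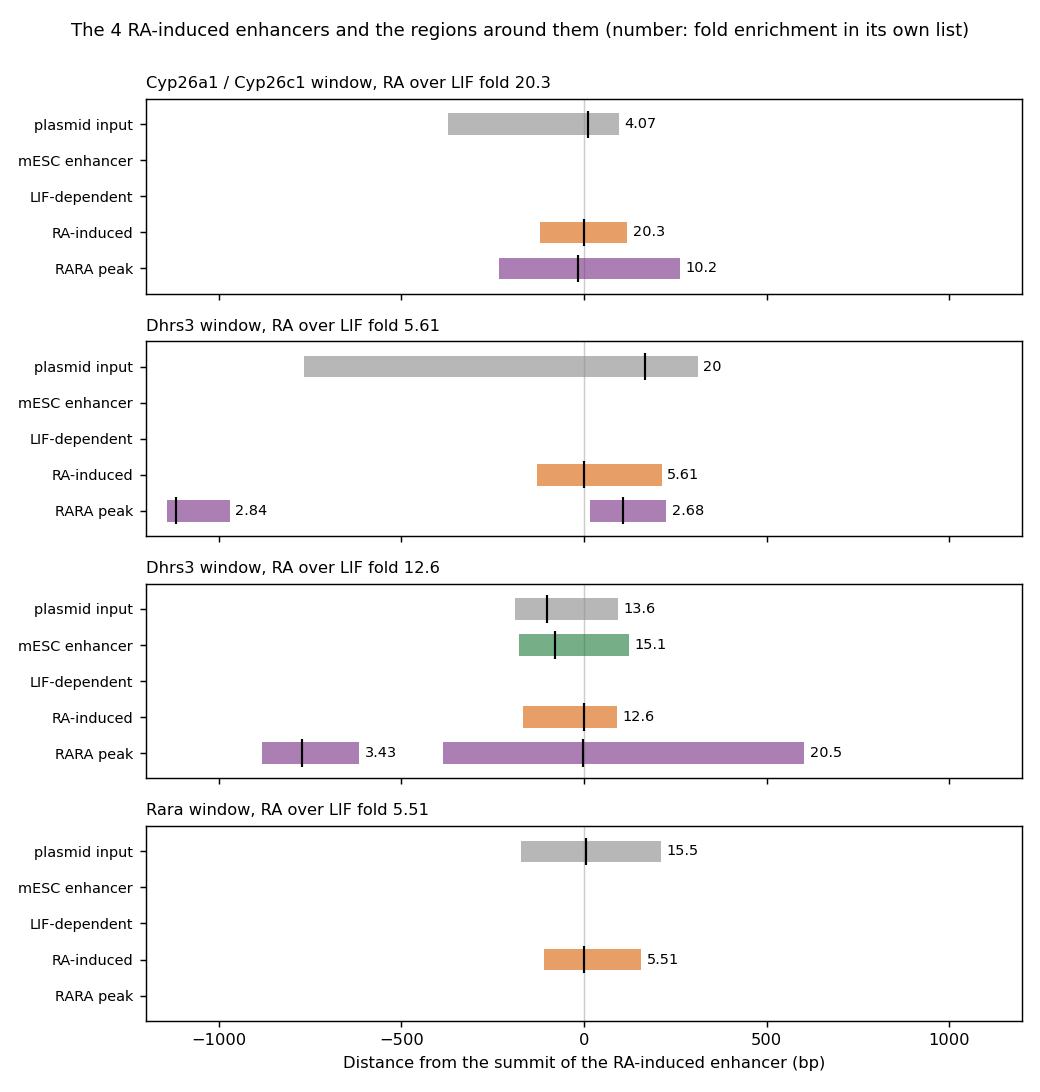
The 4 RA-induced enhancers with the listed regions around them, as distance from the enhancer's summit (bp); boxes are regions, black ticks their summits, and numbers the fold enrichment in the region's own list. The RARA summit lies 16 bp from the Cyp26a1/Cyp26c1 enhancer summit and 4 bp from that of the stronger Dhrs3 enhancer, and no RARA peak lies near the Rara enhancer.

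Crabp2 was the only member whose window held LIF-dependent enhancers. In this window (chromosome 3, 87650000 to 87860000) 5 of 49 input regions held an mESC enhancer, 102.0 per 1000 against 23.3 on the whole chromosome. The one of highest LIF over input fold, from 87723266 to 87723602, had a fold of 12.0 (rank 1220) and a score of 2.69, second in the window by score. It was LIF-dependent (87723310 to 87723549), with a LIF over RA fold of 4.25 (rank 403 of 601). The other LIF-dependent enhancer (87790955 to 87791191) had the lowest fold over input of the window, 4.67 (rank 4319), with a score of 1.75, which was not the lowest. Its LIF over RA fold was 3.97 (rank 434). Both LIF over RA folds were below the list's median of 5.25. In the contrast between conditions the removal of LIF and the addition of RA cannot be told apart.

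Both LIF-dependent enhancers of Crabp2 overlapped an RARA peak, of different strength and position. At the enhancer of lower fold the RARA peak (87790969 to 87791422) had a fold of 3.81 (rank 2659), the highest of the window, and its summit lay 7 bp from that of the LIF-dependent call. At the one of higher fold the peak (87723414 to 87723786) had a fold of 2.52 (rank 8286) and a −log10 q of 2.90, and the summits were 360 bp apart, against a median of 59 bp over the 100 LIF-dependent enhancers with an RARA peak. The 3 mESC enhancers that were not in the LIF-dependent list had no RARA peak. They ran from 87689484 to 87689917 (5.09-fold, score 1.46), from 87733809 to 87734259 (6.59-fold, score 2.87) and from 87778335 to 87778542 (6.54-fold, score 1.53), with the nearest RARA summit 9.83 to 34.0 kb away. The first of these stood on the input region of highest fold in all the windows, 21.5 (87689216 to 87689956, rank 1030). Its own fold over input ranked 4136 of 4674. The remaining RARA peaks were at no enhancer: 2.25-fold (87724294 to 87724446), which was the lowest of the 27 and outside the called library, 2.60-fold (87764636 to 87764836) and 2.78-fold with 2 summits (87846919 to 87847158). The 2.78-fold peak lay in an input region of 12.4-fold. The 2.60-fold peak overlapped one of 10.5-fold at its last bases only, with its summit outside, and lost this overlap when a 0.5 share was required. A stronger RARA peak, 9.27-fold (87885962 to 87886560, rank 310), lay 26.3 kb beyond the window's end and is not a member.

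Rara, the gene of the receptor that was immunoprecipitated, had an RA-induced enhancer without an RARA peak. In its window (chromosome 11, 98690000 to 98940000) this enhancer ran from 98768898 to 98769165, with a fold of 5.51 (rank 187 of 382) and a −log10 q of 10.3. It was not in the mESC list, and it lay in the one of highest fold among the window's 54 input regions (98768836 to 98769219, 15.5-fold). The single RARA peak of the window (98885797 to 98885991) was 116.9 kb away by summit, with a fold of 2.99 (rank 5334). It overlapped an input region of 10.2-fold with no listed enhancer at its first bases only, its summit lay outside that region, and the overlap was lost when a 0.5 share was required. One RARA peak over 54 input regions is 18.5 per 1000, against 55.8 on chromosome 11. Beyond the window's edges, an mESC enhancer of 15.4-fold (98670960 to 98671204) lay 18.9 kb before it, and an RARA peak of 7.83-fold (98995416 to 98996020) 55.7 kb after it.

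Rarb, a receptor gene known as a direct RA target through the repeat shown above, had little called library DNA. Its window (chromosome 14, 17160000 to 17510000) was the widest and held 11 input regions, 3.1 per 100 kb against 10.0 to 28.2 in the other windows, and it was narrower than the gene, which spans 651.5 kb in GRCm38.p6. One RARA peak was listed (17407903 to 17408184), with a fold of 3.29 (rank 3965) and a −log10 q of 9.30. It lay in the input region of highest fold in the window (17407419 to 17408218, 14.9-fold, with 2 summits), their summits 71 bp apart. No enhancer was listed in the window, and the nearest was 488.1 kb from that RARA summit. Chromosome 14 as a whole had 21.3 mESC enhancers per 1000 input regions. Here, unlike at Cyp26b1, the bound DNA was in the called library at a fold above the 90th percentile of all input regions (10.8), and it was in none of the enhancer lists. Whether the bound DNA holds the printed repeat was not determined.

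Rarg, the third receptor gene, had the densest library and the most enhancers. Its window (chromosome 15, 101970000 to 102190000) held 62 input regions, of which 10 held an mESC enhancer, 161 per 1000 against 24.1 on chromosome 15. None of the 10 was in the LIF-dependent or the RA-induced list, against 12.8% and 4.17% of all mESC enhancers. RARA peaks overlapped 4 of the 10, and these were all the RARA peaks of the window. The strongest RARA peak (102042206 to 102042780), of 9.35-fold (rank 302), lay at one of the weakest enhancers (102042417 to 102042691), with a LIF over input fold of 4.71 (rank 4303), a score of 1.81 and summits 5 bp apart. A 5.03-fold RARA peak (102081099 to 102081366) lay at an enhancer of 8.03-fold (102081051 to 102081332). The weak RARA peaks of 2.60-fold (102071045 to 102071215) and 2.62-fold (102181030 to 102181318) lay at enhancers of 9.04-fold (102070902 to 102071349) and 7.42-fold (102181031 to 102181335). RARA and enhancer summits were 5 to 71 bp apart at these 4 places. Over the 866 mESC enhancers with an RARA peak the median was 61 bp.

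The strongest Rarg enhancers had no RARA peak. The first ran from 102073633 to 102074022, with a fold over input of 24.1 (rank 131 of 4674, −log10 q 134) and a score of 3.75 (rank 217). Its input region had a fold of 6.00, against a median of 4.49 in the window, and the nearest RARA summit was 2.68 kb away. The second, from 102156438 to 102156850, had a fold of 17.0 (rank 446) and a score of 3.01, and the third, from 102109761 to 102109990, a fold of 12.0 and a score of 3.498. The other enhancers without RARA were listed at 8.93-fold (102126489 to 102126777), 6.88-fold (102033832 to 102034163) and 4.06-fold (101987579 to 101987849). The 8.93-fold enhancer stood on the input region of highest fold in the window (102126420 to 102126832, 20.2-fold). By score the 4 Rarg enhancers with an RARA peak ran from 1.81 to 2.64 and the 6 without from 2.23 to 3.75, so the ranges overlapped. By fold they ran from 4.71 to 9.04 and from 4.06 to 24.1. Median scores at Rarg were 2.42 with and 2.93 without an RARA peak, against nearly equal medians of 2.57 and 2.504 over the whole list. Median folds were 7.72 with and 10.5 without at Rarg, against 9.72 and 8.45 over the whole list.

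**Figure D3:**
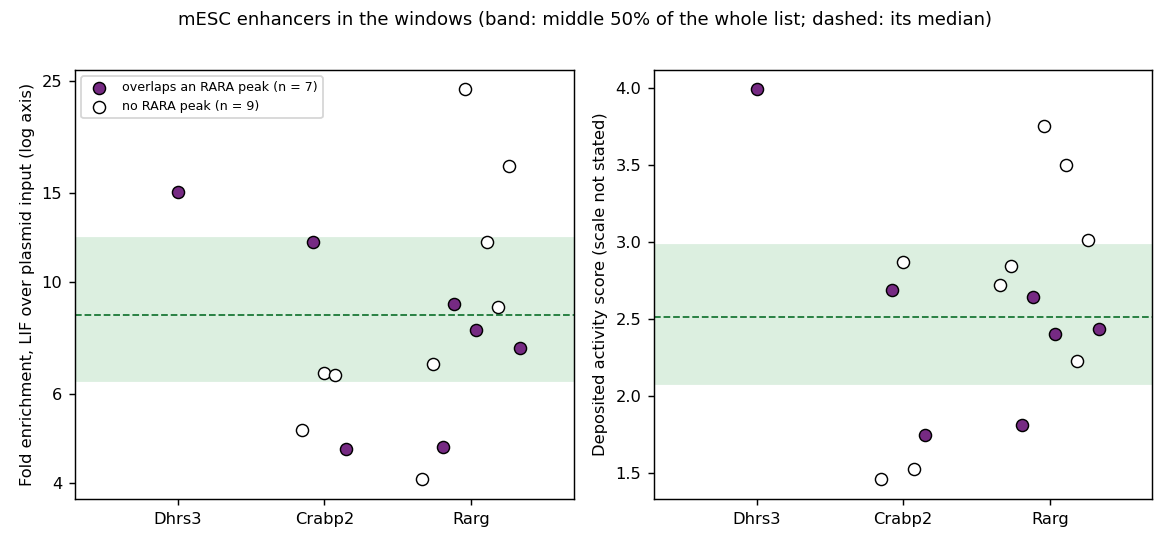
Fold enrichment of LIF over plasmid input (left, log axis) and deposited activity score (right) of the 16 mESC enhancers in the windows, each point an enhancer in order along its window and filled where it overlaps an RARA peak; the band spans the quartiles of all 4674 enhancers and the dashed line is their median. In the Rarg window the enhancers of highest fold and score, up to 24.1 and 3.75, have no RARA peak.

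Rxra, the heterodimer partner, had neither RARA peaks nor listed enhancers. Its window (chromosome 2, 27430000 to 27720000) held 37 input regions, 12.8 per 100 kb, with folds of 2.67 to 11.5. Their median was 5.36, against 5.37 in the Cyp26a1/Cyp26c1 window. Chromosome 2 as a whole had 45.2 RARA peaks and 23.0 mESC enhancers per 1000 input regions. At these rates 37 input regions would go with few of either. Of the input regions of all windows, 126 of 288 had a −log10 q of at least 10 (whole list 47.0%). The input region of highest fold in the Rxra window ran from 27469777 to 27469983. An RARA peak of 2.65-fold (27427846 to 27428088) lay 2.0 kb before the window and an mESC enhancer of 4.14-fold (27395625 to 27395955) 34.2 kb before it. No RARA peak followed for 661.7 kb after the window.

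Ordered by their strongest RARA peak, the windows ran from Dhrs3 (20.5-fold) through Cyp26a1/Cyp26c1 (10.2-fold), Rarg (9.35-fold) and Cyp26b1 (9.31-fold) to Crabp2 (3.81-fold), Rarb (3.29-fold) and Rara (2.99-fold), with Rxra having none. Rarg and Cyp26b1 are not to be told apart at unknown depth. The order also depends on the window edges. RARA peaks of 9.27- and 7.83-fold lay 26.3 kb after the Crabp2 window and 55.7 kb after that of Rara. At Dhrs3, Cyp26a1/Cyp26c1, Rarg and Crabp2 the strongest RARA peak inside the window was at a listed enhancer. The nearest enhancer summit was 4 to 16 bp from the RARA summit. Whether RARA strength goes with enhancer behaviour across loci was not tested. Peaks of 20.5- and 10.2-fold were at RA-induced enhancers, one of 9.35-fold was at an mESC enhancer in neither changed list, and one of 9.31-fold was outside the called library. At the low end, a 2.68-fold peak was at an RA-induced enhancer and a 2.52-fold peak at a LIF-dependent one.

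**Figure D4:**
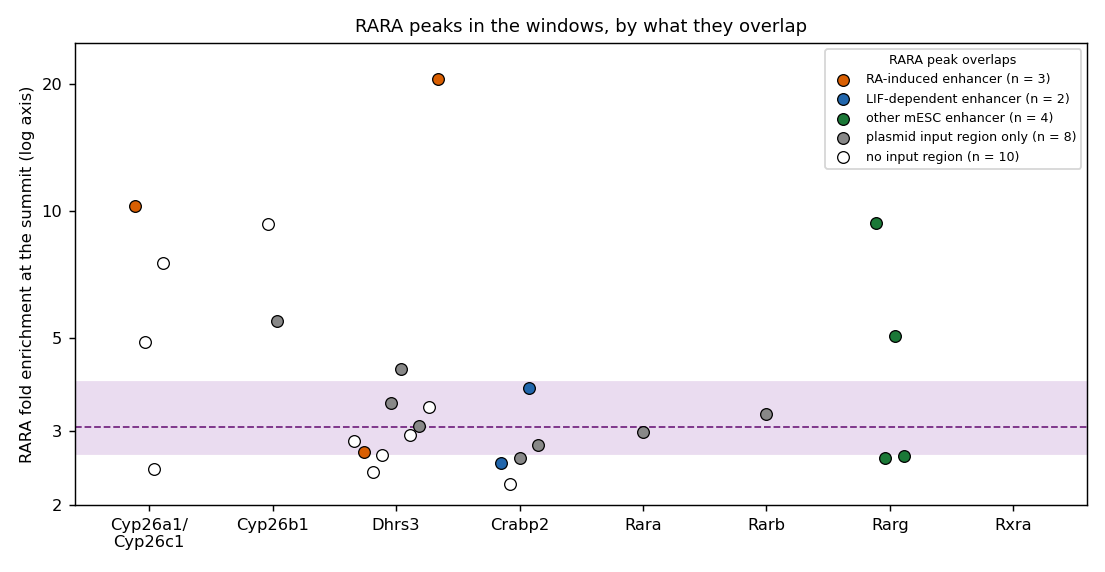
Fold enrichment at the summit (log axis) of the 27 RARA peaks by window, in order along each window and coloured by what the peak overlaps; the band spans the quartiles of all 9757 RARA peaks and the dashed line is their median of 3.06. The peaks above 9-fold lie in the Dhrs3, Cyp26a1/Cyp26c1, Cyp26b1 and Rarg windows, and the Rxra window has no point.

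By what they overlapped, the 9 RARA peaks at a listed enhancer had a median fold of 3.81 (range 2.52 to 20.5), against 3.41 for such peaks in the whole list. The 8 in an input region without an enhancer had a median of 3.19 (2.60 to 5.49; whole list 3.14), and the 10 outside input regions and enhancers 2.89 (2.25 to 9.31; whole list 2.95). The ranges of the 3 groups overlapped. In all, 17 of the 27 RARA peaks overlapped an input region (63.0%, 44.2 to 78.5%), close to the 55.6% of the whole list. Of the 27 peaks 11 had a −log10 q of at least 10 (whole list 30.7%). Among these 11, 8 overlapped an input region (whole list 62.9%) and 4 a listed enhancer (13.5%), and they lay at 3 of the 16 mESC enhancers (8.30%), 2 of the 4 RA-induced enhancers (20.2%) and 8 of the 288 input regions (1.05%). Of the 17 peaks in input regions, the 9 at an enhancer overlapped input of median 9.17-fold and the 8 others of 10.4-fold, against 12.5 and 7.62 over the whole list. For 3 of these 8, in the Cyp26b1, Crabp2 and Rara windows, the input region reached only the peak's end, not its summit. At the 3.09-fold Dhrs3 peak the input region ended at 144590225, short of the kept summit at 144590234. At these peaks the input fold is not that of the DNA at the summit.

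Input regions holding a listed enhancer had a median fold of 10.4 (19 regions, 4.07 to 21.5), and those with neither an enhancer nor an RARA peak 4.88 (261 regions, 1.78 to 16.9), against 12.7 and 5.33 over the whole list. Enhancers of the mESC list were called over the same plasmid input, and the part of library representation in these calls was not tested. The Cyp26a1/Cyp26c1 enhancer was the one of lowest input fold among the 19, at 4.07. Rarg enhancers were listed over input of 4.44- to 20.2-fold, Crabp2 enhancers over 9.17- to 21.5-fold.

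**Figure D5:**
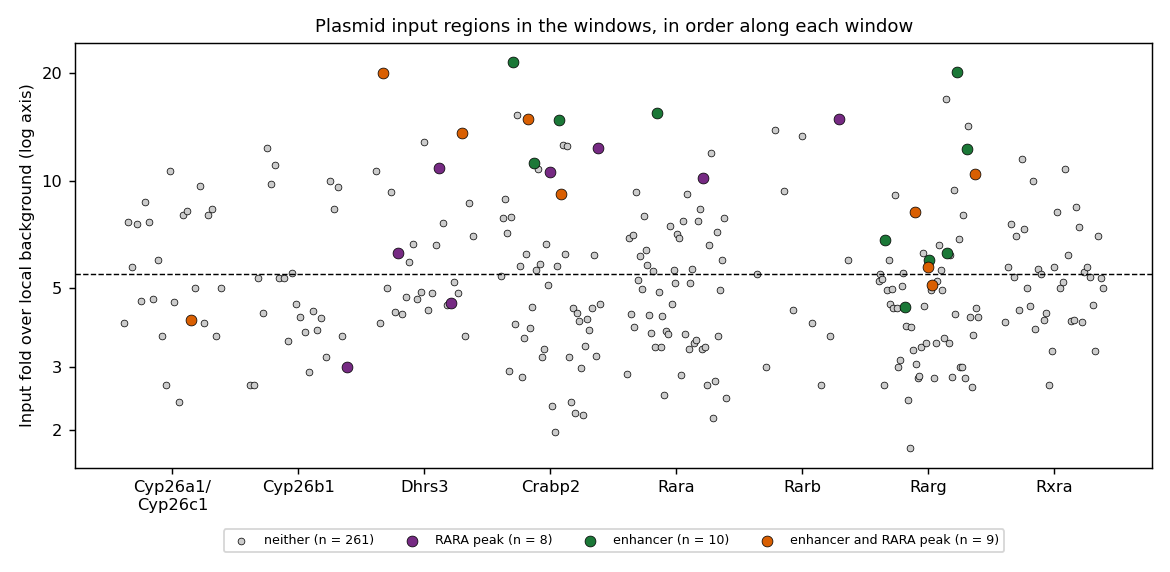
Fold enrichment over local background (log axis) of the 288 plasmid input regions, in order along each window, coloured by whether they hold a listed enhancer, an RARA peak or both; the dashed line is the median of all 186959 input regions. The 19 regions with an enhancer run from 4.07 to 21.5, and the Rarb window has 11 regions in all.

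Membership rested on window edges that the genes do not set. Among enhancers and RARA peaks, those nearest to an edge from inside were the Cyp26b1 RARA peak of 5.49-fold, 2.1 kb from the window's end, the Cyp26a1/Cyp26c1 peak of 7.51-fold at 5.9 kb, and the last Rarg enhancer with its RARA peak at 8.8 kb. Just outside, an RA-induced enhancer of 4.64-fold (37952363 to 37952619) with an RARA peak of 3.90-fold (37952404 to 37952608) lay 82.5 kb after the Cyp26a1/Cyp26c1 window. Before the Rarg window, at 65.8 kb, an RA-induced enhancer of 2.11-fold (101904059 to 101904328) lay within an mESC enhancer of 22.6-fold (101903932 to 101904458). The windows also contain other genes, such as Nes beside Crabp2 and Itgb7 beside Rarg in the reference order, and no region was assigned to a gene.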

How the data were processed

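The tools named in the submitters' processing notes are MACS2, Bowtie2, deepTools, SAMtools and UMI-tools, and the build is mm9. Their order, versions and settings were not stated in the sources used here. Per the deposited peak names, STARR-seq peaks were called on merged replicates. Each deposited list gave a score, a fold over control at the summit (a ratio), −log10 q and the summit position; a deposited table gave an activity score per mESC enhancer, of unstated scale. Except in the RARA list, peak numbers in the names exceeded the listed rows (28102 against 4787 for mESC), so numbered peaks are missing from them, by a filter that is not stated.

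Rows sharing a region were collapsed to the highest −log10 q (31 to 27 RARA rows and 300 to 288 input rows in the windows). Coordinates count from 1. Counts, medians and 95% Wilson intervals were computed with Python 3.11.15, NumPy 2.4.6, pandas 2.3.3 and SciPy 1.17.1, and the overlap code was tested on simulated regions. Named were all enhancers and RARA peaks of the windows and the input regions under them or of highest fold. Members and lists were chosen with earlier results of these data known. The pathway list was limited to promoter motifs, since no mm9 annotation was at hand. Alternatives changed collapsing, membership, window size, overlap and thresholds.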

Additional observations from a re-analysis of the deposited data

How the results depend on the processing

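No paired analysis was possible because the LIF and RA samples, which share replicate numbers, enter the lists merged, and for the same reason no replicate could be left out. Of 37 alternatives over 11 counts, 31 stayed within 1.5 times the reported count, and 6 moved. Some could not move, since the mESC, LIF-dependent and RA-induced members had no rows to collapse. Windows were only shortened, never widened. The stricter RARA cut moved 5 counts and left 1 the same. With RARA peaks of −log10 q of at least 10 alone, 11 of the 27 peaks were left (whole list 30.7%), of which 8 overlapped an input region (in as many input regions) and 4 a listed enhancer, against 62.9% and 13.5% of all such peaks; 3 mESC enhancers then overlapped one (18.8%; whole list 8.30%). The peaks lost included both at Crabp2 enhancers, those of Rara and Rarb, and the one at the weaker Dhrs3 enhancer. With input regions of −log10 q of at least 10 alone, 126 were left (whole list 47.0%). Requiring a 0.5 share of the shorter region left 14 of the RARA peaks in an input region, without 1 peak each at Cyp26b1, Crabp2 and Rara. The unknown depth limits every comparison of single peaks, and an unlisted enhancer may be one that was filtered out.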
